A study of Homo sapiens with 9 samples.

Results

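Long genes that RPE1 cells transcribe were described here by their function, position, structure, base composition and promoters. They were selected on measured values, a length of at least 100 kb and a nascent RNA density of at least 15, the lowest level that keeps the 3000 most transcribed genes of the deposited list. This gave 390 long transcribed genes, 13.0% of the 3000 and 4.07% of the 9588 listed genes. RPE1 is an established human line of retinal pigment epithelial cells immortalized with hTERT, and the series measured ubiquitylation of histone H2B at lysine 120 (H2BK120Ub) by ChIP-seq in RPE1 iCas9 cells that lack p53 and the puromycin resistance gene (p53/puro-dKO). The 9 libraries are 2 of mock-treated cells, 2 of cells left for 3 h after 9 J/m2 of UV-C light, 4 of cells left for 24 h after that dose, and 1 input of mock-treated chromatin. All cells carry the same inducible Cas9 and the same 2 knockouts, and no group has intact p53. The table analysed here holds genes and no value of any ChIP-seq library, so nothing below compares UV-treated with mock-treated cells, and library depth is unknown from it.

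The density of nascent RNA came from BrU-seq, in which cells take up bromouridine for a short pulse and the labelled, newly made RNA is sequenced. For unirradiated wild-type cells, the authors counted BrU-seq reads of an earlier study over the initial 3 kb of every gene and listed 1 value per gene, the BrU density, without an error. All long genes exceed this window, and 17 of the shorter transcribed genes are themselves under 3 kb at their listed length. No test was run between groups of genes. Shares are given with exact (Clopper-Pearson) 95% binomial intervals, and medians with 95% intervals from the binomial distribution of ranks, and both describe counting over genes, which are not replicates.

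RNA polymerase II has to travel the whole of a gene to complete a transcript, so a long gene takes far longer to transcribe than a short one and offers UV light far more DNA. UV-C joins neighbouring pyrimidines, most often TT, and such a lesion in the transcribed strand stalls the polymerase until transcription-coupled repair removes it. H2BK120Ub is placed on chromatin behind the moving polymerase with the help of the elongation factor PAF1C, and for this reason long genes are used to follow how far transcription has progressed after damage.

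Promoters of 5 of these genes are given as examples. They are the genes ranked 2 and 3 among them by BrU density, 2 of the 3 longest, and GALNT1, a gene that starts mucin-type O-glycosylation of proteins. Each sequence runs 5′ to 3′ on the gene's strand, from 220 bases before to 30 bases after the listed TSS, and was read from the hg38 genome. Capitals mark GC boxes (GGGCGG or its reverse complement CCGCCC, which factors of the Sp/KLF family can bind) and would also mark TATA boxes (TATAAA), of which the 5 windows hold 0. The windows are chr10:93482305-93482554 (minus strand) for MYOF, chr6:129710148-129710397 (minus) for ARHGAP18, chr2:204545255-204545504 (plus) for PARD3B, chr10:115093145-115093394 (plus) for ATRNL1 and chr18:35581520-35581769 (plus) for GALNT1.
MYOF: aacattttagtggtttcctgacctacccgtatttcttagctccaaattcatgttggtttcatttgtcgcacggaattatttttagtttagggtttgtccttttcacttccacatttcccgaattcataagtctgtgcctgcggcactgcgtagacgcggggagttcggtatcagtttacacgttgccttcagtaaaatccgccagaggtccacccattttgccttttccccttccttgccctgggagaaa
ARHGAP18: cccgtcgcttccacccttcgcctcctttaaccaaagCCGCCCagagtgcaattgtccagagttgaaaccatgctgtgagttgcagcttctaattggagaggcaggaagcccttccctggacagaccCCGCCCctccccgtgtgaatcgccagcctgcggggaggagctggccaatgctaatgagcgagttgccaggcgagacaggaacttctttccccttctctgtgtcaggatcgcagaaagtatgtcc
PARD3B: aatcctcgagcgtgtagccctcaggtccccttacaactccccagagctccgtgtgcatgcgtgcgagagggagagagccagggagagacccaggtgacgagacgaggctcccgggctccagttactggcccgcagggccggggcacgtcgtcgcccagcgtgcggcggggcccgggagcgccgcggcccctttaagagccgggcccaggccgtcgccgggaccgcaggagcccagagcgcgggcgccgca
ATRNL1: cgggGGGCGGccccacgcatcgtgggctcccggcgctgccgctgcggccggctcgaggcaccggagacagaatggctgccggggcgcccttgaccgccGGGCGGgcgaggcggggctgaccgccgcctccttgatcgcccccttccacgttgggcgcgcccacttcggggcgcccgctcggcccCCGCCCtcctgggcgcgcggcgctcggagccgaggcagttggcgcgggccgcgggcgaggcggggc
GALNT1: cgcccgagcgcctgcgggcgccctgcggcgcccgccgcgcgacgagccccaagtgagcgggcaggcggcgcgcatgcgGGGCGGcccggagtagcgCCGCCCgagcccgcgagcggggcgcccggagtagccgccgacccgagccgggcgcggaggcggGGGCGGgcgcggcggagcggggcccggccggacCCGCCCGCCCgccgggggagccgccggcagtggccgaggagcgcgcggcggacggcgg

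The 5 promoters differed widely in composition. Over these 250 bases, the GC content was 45.6% at MYOF and 57.6% at ARHGAP18, with 11 CG dinucleotides in each, while it was 72.8% at PARD3B, 81.6% at ATRNL1 and 87.6% at GALNT1, with 29, 41 and 54 CG dinucleotides. GC boxes numbered 0, 2, 0, 3 and 5 in the same order.

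The label of the cells was checked against marker genes of the list. Of 15 marker names of retinal pigment epithelium, of which CRALBP is another name of RLBP1, 8 were listed and 2 belonged to the transcribed set, the transcription factor genes OTX2 (217) and PAX6 (137.2). MITF, a master regulator of pigment cells and itself a long gene, had 13.3, below the limit, and the visual cycle gene RPE65 had 0.26. Of 9 mesenchymal markers 4 were listed and 3 transcribed, led by PDGFRB (136.1). The defining visual cycle markers were thus near 0, and the long genes are described as transcribed in this line, not in the tissue.

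The BrU density of the long transcribed genes ran from 15.04 to 699.9 with a median of 53.8 (interval 48.9 to 62.4), and their lengths from 100.02 to 1075 kb with a median of 150.8 kb. Because both measures chose the genes, their values are a description. The shorter 2610 transcribed genes had a median BrU density of 64.9, and the 529 of these between 50 and 100 kb had 67.3. The interval of this median in shorter genes (62.4 to 67.4) met that of the long genes at 62.4. At the upper end, 11 long genes (2.82%, interval 1.42 to 4.99) reached 200, against 267 shorter genes (10.2%, 9.09 to 11.5), and 6 (1.54%) reached 300, against 123 (4.71%). Of the transcribed genes of 50 to 100 kb, 28 (5.29%, 3.55 to 7.56) reached 200 and 7 (1.32%, 0.534 to 2.71) reached 300. Both intervals overlapped those of the long genes. Divided by BrU density into 4 classes of 750, the 3000 genes held 73 long genes in the highest class, then 100, 104 and 113. Among the 250 highest genes there were 8 long ones (3.2%).

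**Figure D1:**
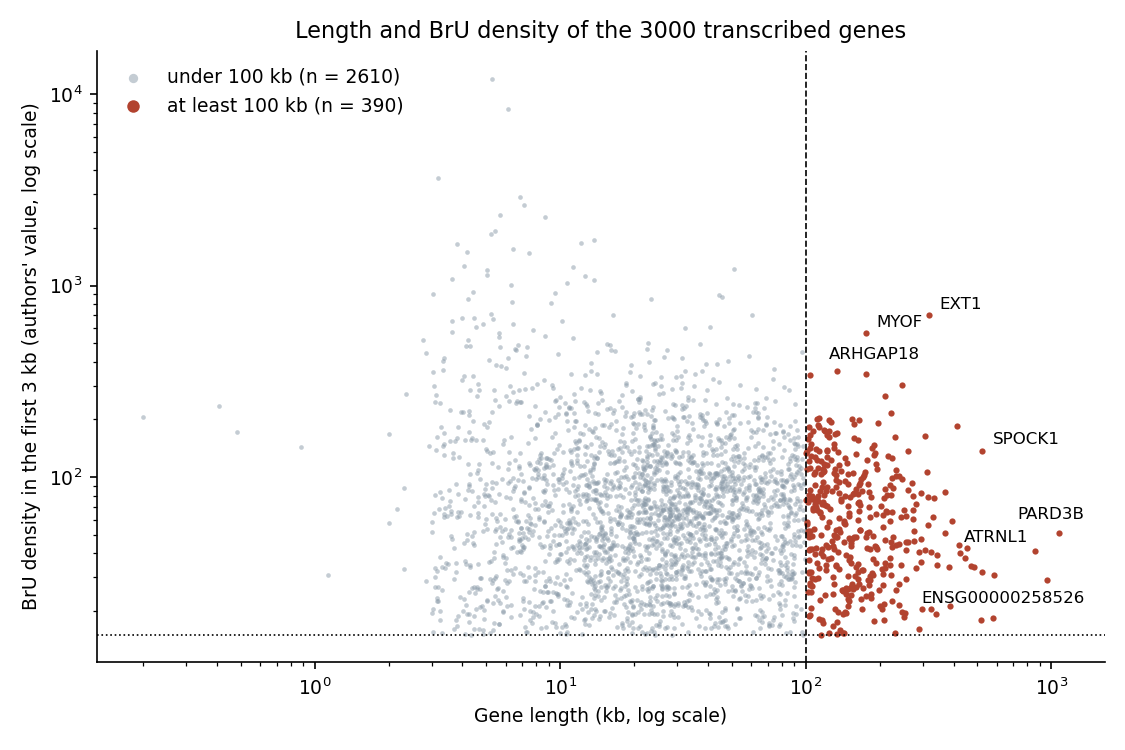
Gene length (kb, log scale) against BrU density in the first 3 kb (authors' value, log scale) for the 3000 transcribed genes, each point 1 gene, with dashed and dotted lines at the limits of 100 kb and 15. The 390 long genes lie between 15.04 and 699.9, while shorter genes reach 12067.

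Within the long genes, those of 100 to 200 kb (283 genes) had a median BrU density of 58.8, those of 200 to 400 kb (92 genes) 49.9 and those of at least 400 kb (15 genes) 37.8. The groups overlapped over nearly their whole ranges, since the lowest values were 15.04, 15.30 and 17.9 and the highest 565.9, 699.9 and 184.7. Across the 390 genes, the Spearman rank correlation of length with BrU density was -0.15. This is a description across genes that share the same libraries. The limits cut through a continuous range. Just under 100 kb lay SHQ1 (99.2 kb, BrU density 37.1) and CEP70 (99.9 kb, 52.0), and just above it LRP12 (100.02 kb, 134.2) and ABCD3 (100.3 kb, 76.3). Just under the BrU limit lay CLIP2 (14.7) and LINC01500 (14.99), and just above it SCML2 (15.04) and ARHGEF10 (15.2).

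EXT1 had the highest BrU density, 699.9, and ranked 38 in the whole list. It encodes a glycosyltransferase that builds heparan sulfate chains, spans 317 kb, and 273 kb of this is its first intron. MYOF, a ferlin of membrane repair and fusion, followed with 566 over 176 kb and 54 exons. ARHGAP18, which switches off small GTPases, had 357, and SEMA3C, a secreted guidance protein, had 347. The values of SH3BP4, an endocytosis protein, and ZMIZ1, a transcriptional coregulator, were 339.7 and 303. These 6 genes stood above 300, and the next was ALCAM, an adhesion molecule of the immunoglobulin family, with 264. PRR16, MEGF9, a membrane protein with EGF-like repeats, and TLE4, a Groucho corepressor, completed the first 10 with 215, 204 and 201.

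The longest genes were found at lower densities. PARD3B, a cell polarity protein, covered 1075 kb with 23 exons and had a BrU density of 50.9. The lncRNA gene ENSG00000258526 covered 958 kb with 8 exons and had 29.1, and 472 kb of it was 1 intron, the longest among these genes. ATRNL1, an attractin-like membrane protein, had 41.2 over 856 kb, LUZP2, a leucine zipper protein, 30.9 over 586 kb, and MECOM, a zinc finger transcription factor, 18.3 over 580.2 kb. The synaptic scaffold gene RIMS1 (517 kb) had 17.9, FBXL17, an F-box subunit of a ubiquitin ligase, 31.8 over 523 kb, the formin gene FHOD3 34.1 over 483 kb and the dynein heavy chain gene DNAH14 34.4 over 469.6 kb. SPOCK1, a secreted proteoglycan, stood apart from the other 9 with 137.6 over 524 kb. GALNT1 had a BrU density of 148 over 130.1 kb and was 36th of the 390.

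By annotation, 363 long transcribed genes (93.1%) were protein-coding and 27 (6.92%) were lncRNA genes. The coding genes had a median BrU density of 57.1 and the lncRNA genes 34.7. The highest lncRNA gene was LINC01118 with 162.3, and the lowest had 17.3. Taking all listed genes of at least 100 kb as the base, 363 of 658 coding genes (55.2%, interval 51.3 to 59.0) belonged to the transcribed set, against 27 of 436 lncRNA genes (6.19%, 4.12 to 8.88). Under 100 kb the shares were 44.5% (43.1 to 45.8) and 6.71% (5.83 to 7.68). For coding genes the share grew with length from 27.3% under 5 kb to 53.1% (50.8 to 55.5) at 20 to 50 kb. It was 54.4% (51.1 to 57.6) at 50 to 100 kb and 58.3% (53.7 to 62.9) at 100 to 200 kb. It was 49.7% (41.9 to 57.5) at 200 to 400 kb and 39.4% (22.9 to 57.9) in the 33 coding genes of at least 400 kb. The intervals of all classes from 20 kb upward overlapped. For lncRNA genes the share stayed between 5.0% and 7.99% in every length class. Of the other long genes, 308 had a BrU density above 0 and below the limit, 396 were listed at 0 and 4 had no value.

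**Figure D2:**
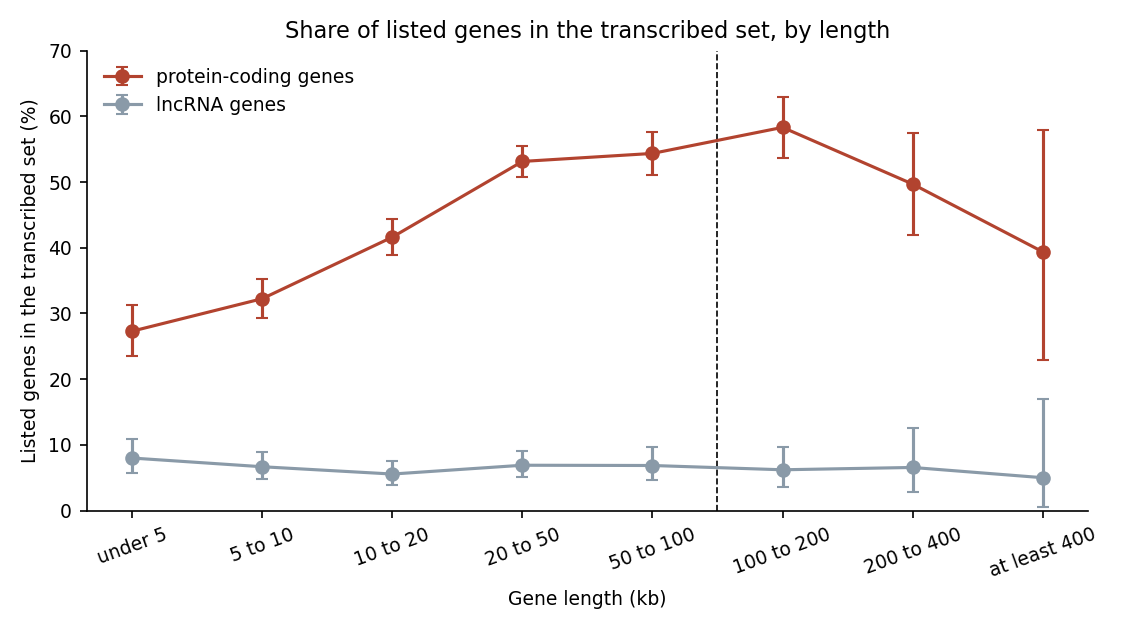
Percentage of listed genes that belong to the transcribed set (vertical axis) by length class in kb (horizontal axis), for protein-coding and lncRNA genes, with exact 95% binomial intervals and a dashed line at 100 kb. Coding genes go from 27.3% under 5 kb to 58.3% at 100 to 200 kb, and lncRNA genes stay at or under 7.99%.

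The function of the long transcribed genes was described with 22 lists of gene symbols, which held 185 of them (47.4%), with 205 in no list, and 909 of the shorter transcribed genes (34.8%). A share in a single list is to be read against this difference in coverage. Signalling lists came first. Small GTPases and their regulators held 17 long transcribed genes (4.36%, interval 2.56 to 6.89), against 34 of the shorter transcribed genes (1.30%, 0.904 to 1.82). ARHGAP18 led with 357, before ARFGEF2 (104), an exchange factor for ARF GTPases, RAB28 (88.6) and SRGAP2 (85.2), a Rac GTPase-activating protein. Of the 22 listed genes of at least 100 kb in that list, 77.3% were transcribed, against 55.2% of all listed coding genes of that length. Protein kinases held 20 (5.13%, 3.16 to 7.81), against 36 (1.38%, 0.968 to 1.90). Their highest values were in NEK7 (199), a mitotic kinase, MET (193), the receptor of hepatocyte growth factor, MAP4K4 (192) and STK24 (167). Of the 36 listed kinase genes of at least 100 kb, 55.6% were transcribed, close to the 55.2% of all listed coding genes of that length. Phosphatases held 6 (1.54%, against 0.958%, with overlapping intervals), led by PTPN4 (98.8), PTPN12 (80.2), PTPRA (74.1) and the lipid phosphatase gene INPP4A (48.1). TGF-beta, Hippo, Wnt and Notch pathways held 4 (1.03%, against 0.345%, with overlapping intervals), which were FAT1 (83.1), a giant cadherin, RBPJ (65.3), the Notch pathway's DNA-binding factor, LRP5 (33.2), a Wnt coreceptor, and WWC1 (27.3), an upstream part of the Hippo pathway.

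Genes of cell shape and attachment formed a further set. Matrix, integrin and cadherin adhesion genes numbered 11 (2.82%, interval 1.42 to 4.99), against 17 shorter genes (0.651%, 0.380 to 1.04), with EXT1 (699.9), ALCAM (264), COL12A1 (166), a fibril-associated collagen, and ITGA11 (135.4), a collagen-binding integrin subunit, at the top. Their share was similar in genes of at least 100 kb listed at 0 (10 genes, 2.53%). Of the 29 listed adhesion genes of at least 100 kb, 37.9% were transcribed, against 55.2% of all listed coding genes of that length. The adhesion list went by symbol and also took CTNNBL1 (42.8), although that protein is known from splicing. It further held PARD3B (50.9), a cell polarity protein, and EXT1 is the glycosyltransferase described above. The share was not recomputed without such genes. Actin and focal adhesion genes numbered 12 (3.08%, 1.60 to 5.31), against 18 (0.690%, 0.409 to 1.09). PARVA (188), which links integrins to actin, TNS3 (163), CALD1 (132.9), an actin-binding protein, and PDLIM5 (129) led them. Of the 19 listed actin and focal adhesion genes of at least 100 kb, 63.2% were transcribed, near the 55.2% of all listed coding genes of that length. Microtubule, centrosome and motor genes numbered 11 (2.82%), close to the 2.11% of the shorter genes, and were led by the kinesin gene KIF13A (126), CAMSAP2 (115), PCM1 (68.6) and DYNC2H1 (51.0), a dynein of cilia. Membrane traffic genes numbered 15 (3.85%, against 2.30%), led by PICALM (188), a clathrin adaptor, SEC24D (183), a COPII coat subunit, STXBP5 (141.5) and LRP12 (134.2).

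Chromatin regulators and coregulators held 20 long transcribed genes (5.13%, interval 3.16 to 7.81), against 42 shorter ones (1.61%, 1.16 to 2.17). Of the 22 listed genes of at least 100 kb in that list, 20 (90.9%) were transcribed, against 55.2% of all listed coding genes of that length. The list held 73 listed genes of any length, so most of its shorter genes were transcribed too. ZMIZ1 (303) and TLE4 (201) led, followed by NIPBL (147.5), which loads cohesin on DNA, and PHF14 (110.8). Zinc finger genes with ZNF and like symbols went the other way, with 5 long genes (1.28%, 0.418 to 2.97) against 163 shorter ones (6.25%, 5.35 to 7.24). The 5 were ZNF644 (174), ZNF618 (69.7), ZNF804A (39.2), ZNF438 (37.2) and ZNF148 (36.9), and they were all the zinc finger genes of that length in the list. Other transcription factors held 8 (2.05%, against 2.64%), led by FOXO3 (198), RUNX1 (137.6), NFIB (109.5) and ETV6 (97.2).

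Factors of transcription elongation and transcription-coupled repair, the machinery the study is about, held 27 listed genes. Of these, 3 were long transcribed genes (0.769%) and 22 shorter ones (0.843%), nearly equal shares, and with a length limit of 90 kb the long ones numbered 5. The 3 long ones were RPRD2 (111.2), which binds the tail of RNA polymerase II, AFF1 (54.9), a scaffold of the super elongation complex, and INTS4 (49.6), an Integrator subunit. Both listed subunits of PAF1C were shorter, CTR9 with 59.3 over 28.5 kb and LEO1 with 50.7 over 33.8 kb.

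Ubiquitin ligases, conjugating enzymes and deubiquitinases held 20 long transcribed genes (5.13%, against 3.18%, with overlapping intervals). USP47 (174), a deubiquitinase, FBXW11 (125.7), an F-box protein, and the ligase genes SH3RF2 (123.4) and UBE3C (105.1) led them. USP6NL (38.1) entered this list by its symbol, although it acts on Rab GTPases. RNA-binding and decay genes held 11 (2.82%, against 3.33%), among them TNRC6B (159.9), a partner of Argonaute, PUM2 (158.2), which represses mRNAs, and CNOT4 (103.2). Solute carriers, ABC transporters and pumps held 10 (2.56%, against 2.11%), led by the bicarbonate transporter gene SLC4A7 (200.7), ABCC1 (116.8), ATP6V1H (84.7) and ABCD3 (76.3). Ion channels and neurotransmitter receptors held 4 of 33 listed genes of that length (12.1%), among them CLCN3 (121.9), SCN9A (51.4) and KCNK2 (27.7). All 1098 listed genes of that length gave 390 (35.5%), and the 658 coding ones gave 363 (55.2%). The count of channel and receptor genes was 8 with the 3500 highest genes taken as transcribed and 2 with a length limit of 110 kb.

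Immediate-early, mitochondrial, histone and ribosomal lists held from 0 to 2 long transcribed genes. Of the 26 listed immediate-early and DNA damage response genes, 0 reached 100 kb, the longest being SESN3 at 65.7 kb. The 20 of them that were transcribed had a median length of 5.76 kb and a median BrU density of 225.4. These 20 made up 0.766% of the shorter transcribed genes. Mitochondrial respiration genes numbered 31 among the shorter transcribed genes (1.19%, interval 0.808 to 1.68) and 0 among the long ones, and histones 2 (0.0766%) and 0. A count of 0 in 390 genes allows a share of up to 0.941% (upper end of the exact interval), which is above the shorter genes' share in the immediate-early and histone lists and within their interval in the mitochondrial list. The intervals of long and shorter genes thus overlapped in these 3 lists. Ribosomal proteins and translation factors numbered 51 (1.95%, 1.46 to 2.56) and 2 (0.513%, 0.0622 to 1.84), with overlapping intervals, and the 2 were EIF3H (137.2), a subunit of an initiation factor, and EEFSEC (45.8), the elongation factor of selenocysteine.

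Genes with a LINC symbol made up 2.31% of the long and 1.53% of the shorter transcribed genes. Of 205 such listed genes of at least 100 kb, 9 (4.39%) were transcribed, led by LINC01118 (162.3), LINC03041 (63.6), LINC01473 (42.6) and LINC02742 (34.7), and 130 were listed at 0. Of all 436 listed lncRNA genes of that length, 27 (6.19%) were transcribed and 250 (57.3%) were at 0. The 9 became 4 with the 2500 highest genes taken as transcribed and 19 with the 3500 highest. Of the list of common fragile sites, 2 genes were listed and PARD3B was transcribed.

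The long genes were spread over all autosomes (367) and chromosome X (23). On chromosome 4 they made up 33 of 131 transcribed genes (25.2%, interval 18.0 to 33.5), and on chromosomes 5, 2 and X 20.2%, 18.3% and 18.3%. On chromosome 19, which has many zinc finger genes, they made up 2 of 170 (1.18%, 0.143 to 4.19), namely KDM4B and PEPD, and on chromosomes 16 and 17 they were 3.75% and 4.60%. Summed up, the long genes covered 71.4 Mb, 47.1% of the length of all transcribed genes. They were 13.0% of the transcribed genes by number and held 8.75% of the summed BrU density. That density counts only the first 3 kb of each gene, so its sum cannot be set against length. A few shorter genes weigh heavily in it, such as EEF1A1 with 12067.

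Strand was even. Of the long transcribed genes, 206 (52.8%, interval 47.7 to 57.9) lay on the plus strand, against 53.4% of the shorter ones. The nearest other listed gene lay at a median distance of 63.9 kb, against 32.9 kb for shorter transcribed genes, and the nearest other transcribed one at 215.9 kb, against 113.8 kb. Other genes of at least 100 kb had still wider medians, 82.3 kb and 345.4 kb below the BrU limit and 74.1 kb and 703.6 kb at 0, and the whole list had 45.4 kb and 236.1 kb. The nearest listed gene was itself transcribed for 161 long genes (41.3%), against 44.7% of the shorter genes. Although the study chose genes that do not overlap and lie at least 2 kb apart, 30 long genes (7.69%, 5.25 to 10.8) were closer than 2 kb to another listed gene at the listed coordinates, against 3.56% of the shorter ones (2.89 to 4.35), and 14 of the 30 overlapped one.

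Of the 367 pairs of long transcribed genes that follow each other on a chromosome, 13 lay under 100 kb apart, 7 on the same strand, 3 head to head and 3 tail to tail. The closest pair was ARHGAP18 and ENSG00000226149 with 84 bp between them on the minus strand, where the lncRNA gene begins beyond the end of ARHGAP18. Their BrU densities were 357 and 94.4, and the window of ENSG00000226149 thus lies directly downstream of a gene with the higher density. Whether reads of ARHGAP18 add to it was not tested. OSBPL8, a lipid transfer protein, and the lncRNA gene ENSG00000257526 started 108 bp apart in opposite directions, with 78.2 and 26.2. NEK1, a kinase of cilia and DNA repair, and the chloride transporter gene CLCN3 started 7.99 kb apart in the same arrangement, with 59.2 and 121.9.

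Genes outside the list also lay in and near the long genes. Another annotated gene lay inside 182 of them (46.7%), against 11.5% of the shorter genes, which offer less room. In the first 3 kb, where the BrU density was counted, 9 long genes (2.31%, interval 1.06 to 4.34) held another annotated gene on the same strand, against 8.85% of the shorter ones (7.79 to 10.0), and 44 (11.3%) held one on the opposite strand, against 12.0%. A gene on the same strand ended within 5 kb upstream of 21 (5.38%, 3.36 to 8.11, against 13.0%). In transcribed genes of 50 to 100 kb this share was 7.94% (5.78 to 10.6). A same-strand gene lay in the first 3 kb of 6.05% of them (4.17 to 8.43). Both intervals overlapped those of the long genes. A gene in the opposite direction began within 1 kb upstream of 45 long genes (11.5%, 8.54 to 15.1, against 15.9%, 14.5 to 17.3). The study's methods give this count as run with HOMER's default settings and name stranded counting for its profiles, and without strand the reads of such neighbours cannot be told apart. NBPF26 (176) and NBPF20 (40.9) belong to a family of near-identical copies, and their densities are uncertain because each read was kept at 1 place.

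In structure, the long transcribed genes were mostly intron. The canonical transcript had a median of 16 exons (interval 15 to 18), against 7 in shorter transcribed genes and 12 in those of 50 to 100 kb, and 5 in genes of at least 100 kb listed at 0. Gene type differs in that last contrast, since 63.1% of the genes at 0 are lncRNA genes. Among the long transcribed genes, lncRNA genes had a median of 5 exons and coding genes 17. The exons of long transcribed genes added up to a median of 5.62 kb, against 3.15 kb in shorter ones, and the coding part to 2.54 kb, against 1.26 kb. First introns had a median of 25.9 kb, against 3.76 kb, and exceeded 3 kb in 81.3% of the long genes, against 56.6%. This share was 79.7% in transcribed genes of 50 to 100 kb. It was 82.1% in genes of at least 100 kb below the BrU limit and 82.8% in those listed at 0. An intron over 3 kb is longer than the whole window of the BrU density. A median of 8.48% of that window was exonic, against 8.93%. The longest intron had a median of 53.9 kb, against 8.52 kb, and it was the first one in 44.4%, against 45.0%. The number of exons hardly followed length within the long genes (Spearman rank correlation 0.058, a description across 390 genes). The genes named next were chosen after their values were seen. NBPF20 had 143 exons, HERC2 93 and DYNC2H1 89, while PRR16, HRH1 and MB21D2 had 2 each.

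Base composition of the long transcribed genes was AT-rich. Their median GC content was 39.2% (interval 38.6 to 39.6), against 43.0% (42.7 to 43.3) in shorter transcribed genes, 40.0% in those of 50 to 100 kb and 37.8% in genes of at least 100 kb listed at 0. In the first 3 kb the medians came closer, at 46.95% (46.1 to 47.7) and 48.1% (47.8 to 48.4). TT on the transcribed strand, the pair in which UV-C lesions are most common, occurred 90.8 times per kb (88.9 to 92.2), against 82.3 (81.2 to 83.2). It was 88.4 (87.2 to 89.8) in transcribed genes of 50 to 100 kb, 96.5 in genes of at least 100 kb below the BrU limit and 101.3 in those listed at 0. Over the first 50 kb alone, the medians were 85.0 in long, 87.1 in 50 to 100 kb and 81.9 in all shorter transcribed genes. Through length the number per gene was far larger, with a median of 13362.5 TT in a long gene, from 4654 to 105804, the last in PARD3B, against a median of 1891. GALNT1 held 12577. The genes with the most TT per kb and the fewest were named after their values were seen: KLHL4 on chromosome X had 125.1 per kb, and VAV2 had 40.3.

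Promoters of the long transcribed genes were rich in CpG. The ratio of observed to expected CpG, from 250 bases before to 50 after the listed TSS, had a median of 0.869 (interval 0.850 to 0.895), against 0.848 (0.839 to 0.856) in shorter transcribed genes and 0.371 in genes of at least 100 kb listed at 0. It exceeded 0.6 in 353 of 390 (90.5%, 87.2 to 93.2), against 85.0% (83.6 to 86.4) and 33.3% (28.7 to 38.2). Transcribed genes of 50 to 100 kb had 90.0% (87.1 to 92.4). By type, it exceeded 0.6 in 92.6% of the long coding genes and in 63.0% of the 27 long lncRNA genes. The listed TSS lay within 100 bp of the RefSeq start in 297 of the 318 long genes that were matched by symbol (93.4%). The genes listed at 0 differ in both respects, since 63.1% of them are lncRNA genes, and the listed TSS lay within 100 bp of the RefSeq start in 137 of 202 (67.8%).

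Short sequence motifs were counted in the same 300 bases on both strands and again in a wider window, from 500 bases before to 100 after, and a match is a description and not a binding site. A GC box, described above, occurred in 75.9% of the long transcribed genes (interval 71.3 to 80.1), against 71.3% of the shorter ones (69.5 to 73.0, which overlaps), 75.2% of those of 50 to 100 kb and 42.6% of all listed promoters. CCAAT, the motif of NF-Y, occurred in 27.4% (23.1 to 32.2), against 39.2% (37.3 to 41.1) and 37.6%, and in the wider window in 44.1%, against 54.4%. CCGGAAG, an ETS motif, occurred in 12.3% (9.22 to 16.0), against 21.7% (20.2 to 23.4) and 8.82%. TATAAA occurred in 12 long genes (3.08%, 1.60 to 5.31), against 6.40% (5.49 to 7.41) and 13.4%, and in 20.2% (16.4 to 24.5) of the genes of at least 100 kb listed at 0, the group that holds mostly lncRNA genes. In the wider window TATAAA occurred in 11.5% of the long genes against 16.6% of the shorter ones. Transcribed genes of 50 to 100 kb had CCAAT in 35.2% (31.1 to 39.4) and CCGGAAG in 18.7% (15.5 to 22.3) of the 300-base promoters. TATAAA occurred in 5.10% of them (3.39 to 7.34), and these intervals overlapped those of the long genes.

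Like the GC box, the other 6 motifs had overlapping intervals in long and shorter transcribed genes. CACGTG (E-box) occurred in 9.74% and 9.46%, against 7.17% of all listed promoters. GGAATG (TEAD) had 9.74% and 10.5%, against 13.7%, and in the wider window 22.1% and 22.0%. GCATGCGC (NRF1) had 5.13% and 5.82%, against 2.66%, and AAGATGGC (YY1) 4.36% and 6.25%, against 2.85%. TGACGTCA (CRE) had 3.85% and 3.98%, against 1.77%, and TGACTCA (AP-1) 2.82% and 3.64%, against 5.16%. Of the 12 long genes with TATAAA, 10 were coding, and the highest BrU densities among them were in ME3, a malic enzyme (161.5, CpG ratio 0.596), TNRC6B (159.9, 0.130) and the lncRNA gene ENSG00000226149 (94.4, 0.122). These 3 were chosen after their values were seen.

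**Figure D3:**
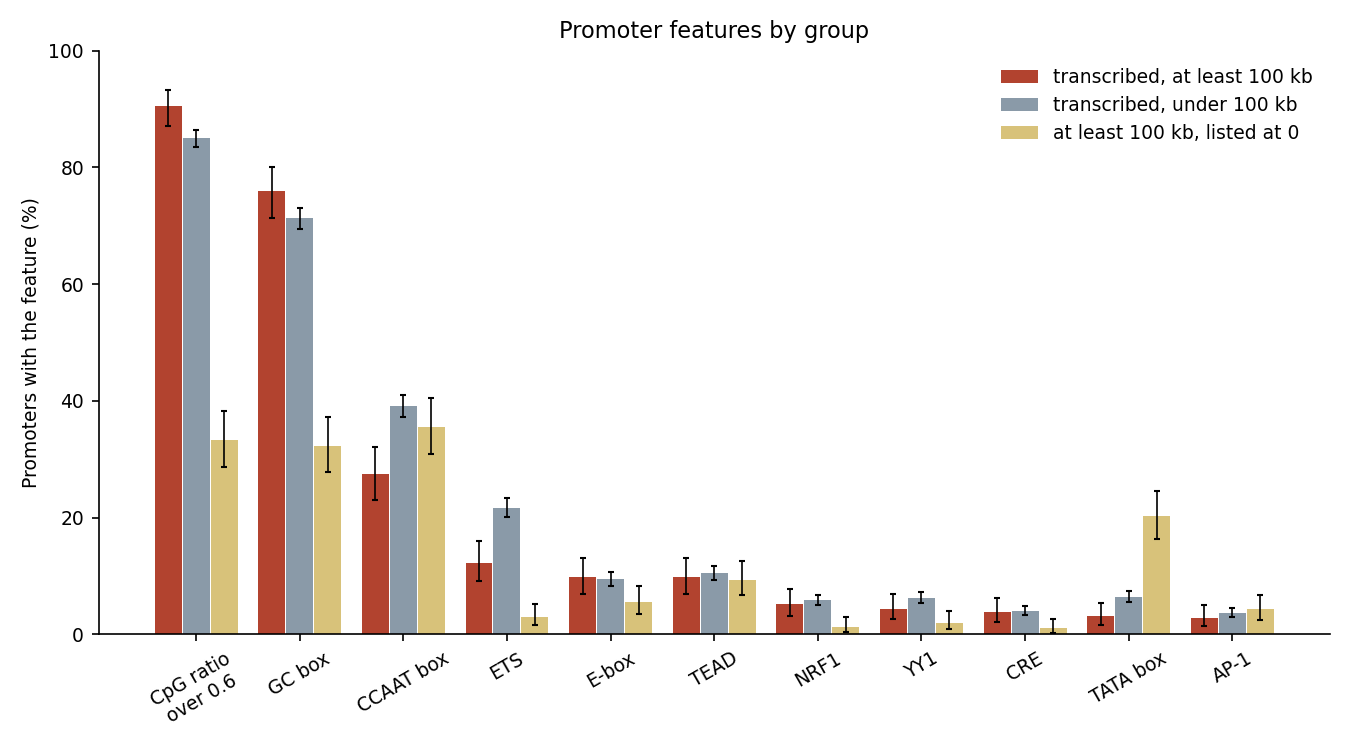
Percentage of promoters (vertical axis) with a CpG ratio over 0.6 or with each of 10 motifs, for long transcribed, shorter transcribed and long genes listed at 0, with exact 95% binomial intervals. Long transcribed genes reach 90.5% for the CpG ratio, against 33.3% of long genes listed at 0, and 3.08% for the TATA box, against 20.2%.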

How the data were processed

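The H2BK120Ub ChIP-seq series of the study has 9 libraries, 1 of them an input, but the table used here holds genes of the whole series. The authors took canonical gene starts from UCSC, kept genes by spacing and size and updated them to GRCh38.p14. The authors deposited the BrU density as a score, computed with HOMER (4.8.2, per the submitters' processing notes) over the initial 3 kb from STAR-aligned reads of unirradiated wild-type cells. Its libraries are not separated, so it has no error. Every value above 0 was a whole multiple of 0.0433 (tolerance 0.1 of a step). If a step were 1 read, which the sources used here do not say, the lowest long transcribed gene would rest on 347 reads and the highest on 16152, a counting error of 5.37% and 0.787%. Intervals cover counting only. Columns of per-sample values left unused numbered 0.

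Genes were matched by identifier to GENCODE release 44 (9538 of 9588), and each gene end was computed from its TSS, strand and length. Sequences were read from hg38, whose main chromosomes share the coordinates of GRCh38.p14. RefSeq starts were matched by symbol and chromosome. Values within 1e-06 of 0 were taken as 0. Scripts used Python 3.11.15, pandas 2.3.3, scipy 1.17.1 and pysam 0.24.0, and the counters were tested on simulated data. The genes and lists were chosen with earlier results of these data known. Genes named were the 10 highest and 10 longest, the 4 highest of each list, the 2 on each side of both limits, GALNT1, elongation genes and the 3 closest pairs, unless said otherwise, and promoters shown were those of the 3 highest, the 3 longest and GALNT1, without 2 whose sequences were not used here. Some genes and sequences that this rule names are not reported here. Alternatives changed the length limit, the number of genes ranked, the neighbours, the transcript and the sequence window.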

Additional observations from a re-analysis of the deposited data

How the results depend on the processing

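No paired analysis was possible because the table holds no value of a single library. For the same reason the planned comparison of ChIP-seq libraries, with and without a replicate block and leaving out each replicate, was not run. The results were recomputed under 137 alternatives, of which 1 was added after the data were seen (BrU density without genes that have a same-strand neighbour in or just upstream of the window, median 55.7). In 117 of them a count stayed within 1.5 times, or another value within its interval. Among these the number of long transcribed genes was 318 with the 2500 highest genes, 460 with the 3500 highest and 502 with the annotated gene length. The median BrU density of long transcribed genes was 69.1 with the 2500 highest genes and 45.7 with the 3500 highest, below the shorter genes in both (77.4 and 54.3), as the limit itself moved. The median distance to the nearest gene was 215924 bp with transcribed neighbours only. The median GC content was 39.7% in the first 50 kb and 46.95% in the first 3 kb, and TT per kb was 85.0 in the first 50 kb. The median CpG ratio was 0.822 from 500 bases before to 100 after the TSS and 0.845 at the RefSeq start. One order reversed: at RefSeq starts the share with a GC box was 68.2% in long and 68.3% in shorter transcribed genes, and the cause was not tested. The other moves were 5 counts of function lists, LINC genes (4 with the 2500 highest genes, 19 with the 3500 highest), ion channels (8 with the 3500 highest, 2 at 110 kb) and elongation factors (5 at 90 kb), and 6 motif shares in the wider window, of which TATA (11.5%), TEAD (22.1%) and CCAAT (44.1%) moved by over 1.5 times. Depth is unknown, and 1 value per gene without libraries limits every statement to this list.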
